A study of Mus musculus with 21 samples.

Results

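Sspo, which encodes SCO-spondin, was read together with 9 further genes of secreted or membrane proteins built from thrombospondin repeats: Spon1, Spon2, Thbs1, Thbs2, Thbs3, Thbs4, Thsd7a, Thsd7b and Thsd4. These 10 genes were taken by symbol from a table of 31883 genes, and all 10 were found and passed the filter on low values. The study is a bulk RNA sequencing comparison of the mouse subcommissural organ (SCO), a secretory ependymal gland in the roof of the third ventricle, with the hippocampus. Values were held for 9 libraries of newborn (postnatal day 0) C57BL/6 mice, 4 from SCO and 5 from hippocampus, and no treatment or engineered allele is named for either tissue. Libraries of postnatal day 60, 6 per tissue, were not analysed here. Sex, pooling of animals and the number of animals behind the libraries are not in the labels, and all p-values therefore rest on library-to-library spread, which may be technical.

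SCO-spondin is a giant glycoprotein that SCO cells release into the cerebrospinal fluid, where it assembles into the Reissner fibre that runs down the central canal. It carries many thrombospondin type 1 repeats, short folded modules with conserved tryptophans and cysteines that also occur in the spondins, in thrombospondins 1 and 2 and in the Thsd proteins. Thrombospondins 3 and 4 lack the type 1 module and share only the other thrombospondin repeats. Type 1 repeats are modified in the secretory pathway by C-mannose on tryptophan, added by DPY19 family enzymes, and by an O-linked fucose and glucose pair, added by POFUT2 and B3GLCT.

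Sspo lies on the plus strand of chromosome 6 (GRCm38, chr6:48448229-48501250). Its annotated exons form 103 blocks with a total length of 15863 bases, and they overlap no other annotated gene. The promoter window of Sspo is shown because this member alone was called different between the tissues. It runs from 250 bases before the RefSeq start to 50 after it, on the plus strand of GRCm38.p6 at chr6:48447924-48448223, and capitals mark the E-box CAGCTG, a sequence bound by proneural basic helix-loop-helix factors.
Sspo promoter: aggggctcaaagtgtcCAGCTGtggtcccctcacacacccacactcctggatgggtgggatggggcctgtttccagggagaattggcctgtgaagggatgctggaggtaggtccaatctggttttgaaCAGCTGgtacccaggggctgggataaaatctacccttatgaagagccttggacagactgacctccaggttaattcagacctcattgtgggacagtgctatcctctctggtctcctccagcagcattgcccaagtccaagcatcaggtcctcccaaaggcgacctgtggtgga
The palindrome CAGCTG occurs 2 times in this window, beginning 234 and 122 bases before the start. Of 32851 RefSeq promoter windows of the same length, 16.3% hold it at least once and 1.90% at least 2 times. The letters GTTGCC (half-site of RFX factors), TAATCC (OTX factors) and CCGGAT (SPDEF), searched on both strands, have 0 matches here and occur in 12.5%, 7.06% and 6.04% of the windows. The motifs were chosen after the sequence was seen, do not overlap one another, and describe letters only.

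The libraries held between 35379988 and 151009954 reads, and all values below are normalized counts, the reads of a gene after scaling each library by its size factor. Marker sets fit the tissue labels. The SCO genes Spdef, Car3 and Pax6 summed to 12481 to 27139 normalized counts in SCO libraries and 873 to 2160 in hippocampus. The 11 genes of hippocampal and cortical neurons summed to 5862 to 10314 and 122694 to 160009. The SCO libraries also held more of 11 diencephalic and midbrain neuron markers, between 61883 and 101314 against 8906 to 11823. Without overlap, SCO libraries also held more of the markers of red blood cells (45492 to 79148 against 4233 to 27027), motile ciliated ependyma (16233 to 33236 against 3911 to 6100) and microglia (25968 to 36432 against 12513 to 19767). The part of these cells in the members' values was not tested. SCO replicate 4 stood apart by its choroid plexus markers (185457, against 2175 to 6963 in the other SCO libraries). Ttr alone made 171311 of that sum, and held 559, 403 and 108 in SCO replicates 1 to 3. In bulk libraries fewer cells of a type and less RNA per cell cannot be told apart.

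Sspo was high in every SCO library and close to unread in every hippocampus library. SCO replicates 1 to 4 held 2504, 9720, 2999 and 2027 normalized counts, from 1678, 6583, 3284 and 1811 reads. Hippocampus replicates 1 to 5 held 1.25, 3.30, 1.03, 1.10 and 1.14, from 1, 2, 1, 3 and 3 reads. The tissues did not overlap, and SCO replicate 2 held more than 3 times as much as any other SCO library. That library also had the highest sum of the SCO markers, with 20282, 27139, 18944 and 12481 in SCO replicates 1 to 4. Spdef and Car3 were highest there, and Pax6 in SCO replicate 1. By rank among all 31883 genes Sspo stood between position 1082 and 5697 in the SCO libraries and between 20072 and 21857 in hippocampus.

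Sspo averaged 4312 ± 3627 over the SCO libraries (SD, n = 4) and 1.56 ± 0.974 over the hippocampus libraries (SD, n = 5). Without SCO replicate 2 the SCO mean was 2510 ± 486 (SD, n = 3). On the log2(value + 1) scale, which understates changes of low genes, SCO exceeded hippocampus in Sspo by a log2 fold change of 10.48 (SE 0.80, 95% confidence interval 8.70 to 12.25, limma adjusted p = 0.000175). By this value Sspo ranked 6 of the 28150 genes tested. The 5 hippocampus libraries together held 10 reads of Sspo, a level of 0.0234 RPM (reads scaled by the library totals) (exact Poisson 95% interval 0.0112 to 0.0430). The SCO libraries together held 71.6 RPM, a ratio of 3066 (exact binomial 95% interval 1667 to 6395). Both intervals reflect counting error alone, because the reads were pooled, and they leave out the spread between libraries. The reads carry no molecular identifiers, and copied reads are not allowed for either.

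**Figure D1:**
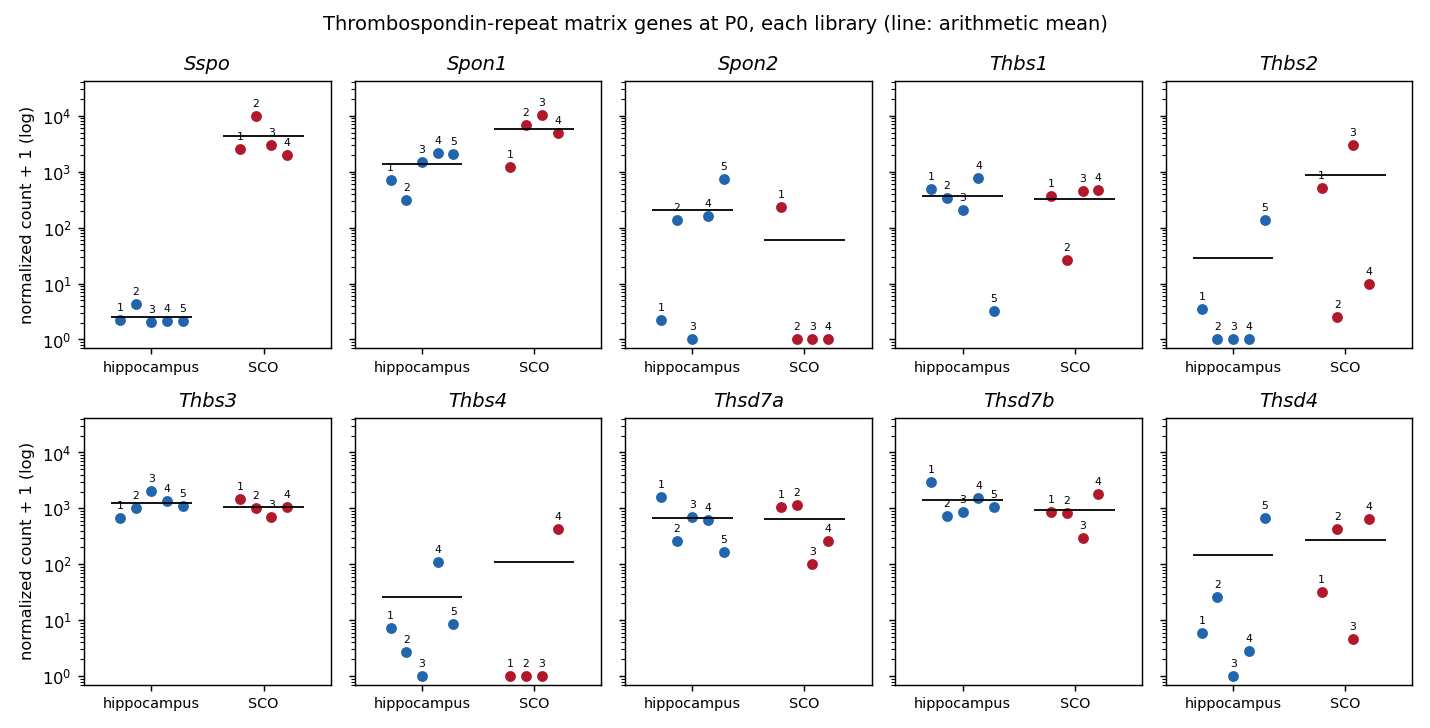
Normalized count + 1 (log axis) of the 10 genes in each P0 library, hippocampus in blue and SCO in red, with replicate numbers beside the points and a line at the arithmetic mean. Sspo is the gene whose tissues do not overlap, while Spon2, Thbs2, Thbs4 and Thsd4 range from near 0 to over 100 within a tissue. Thbs1 does so in hippocampus (2.28 to 775).

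Of the 10 genes, 1 was called over all genes, Sspo, with 1 higher and 0 lower in SCO. Among the 28150 genes tested 3.05% were called, 1.71% higher and 1.34% lower in SCO. Groups did not overlap for 1 of the 10, Sspo, and for 8.53% of all genes tested, 4.78% with SCO higher and 3.75% with SCO lower. The median log2 fold change of the 10 genes was 0.16, against -0.04 over all genes tested. At an unadjusted p under 0.05, limma took 2 of the 10, Sspo and Spon1, both higher, where it took 15.5% of all genes, 8.33% higher and 7.14% lower. EdgeR on the recovered reads called 1 of 8 members tested, Sspo, with 3.65% of all genes called. DESeq2 called 2 of 9, Sspo and Spon1, with 12.7% of all genes called.

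Among the spondins, Spon1 (GRCm38, chr7:113765998-114043370, plus strand) encodes F-spondin, a secreted protein of the floor plate that acts on commissural axons. The Spon1 values of SCO replicates 1 to 4 were 1214, 6720, 10464 and 4941 normalized counts, and hippocampus replicates 1 to 5 held 695, 315, 1502, 2136 and 2081. All SCO libraries but replicate 1 were above every hippocampus library, and SCO replicate 1 fell inside the hippocampus range. The means of Spon1 were 5835 ± 3845 (SD, n = 4) and 1346 ± 818 (SD, n = 5), a ratio of means of 4.33. Its log2 fold change was 2.07 (SE 0.72, 95% confidence interval 0.47 to 3.67), and it did not pass over all genes (limma adjusted p = 0.182). EdgeR did not call it either (adjusted p = 0.125). DESeq2 on the recovered reads called it, at a log2 fold change of 2.12 (adjusted p = 0.0171), and so did the authors' deposited table (2.12, adjusted p = 0.0171).

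The order of the SCO libraries in Spon1 was also the order of their summed radial glia and astrocyte markers, which were 167928, 245517, 364299 and 226307 for replicates 1 to 4. All 8 markers of that list were in the table, 7 had the higher mean in SCO, and none was at 0 throughout a tissue. Taken singly, Fabp7, Sparcl1, Aldh1l1 and Aqp4 had the Spon1 order in SCO, and Slc1a3, Vim, Gfap and Hes5 did not. Hes5 had the reverse order, with 1752, 309, 2.74 and 751 in SCO replicates 1 to 4. In hippocampus replicates 1 to 5 the list summed to 156823, 190502, 170050, 171976 and 177459, so replicate 2, with the least Spon1, was highest. Summed motile ciliated ependyma markers had the same order in SCO, with 16233, 31496, 33236 and 22382 in replicates 1 to 4, but no single gene of the list did. In hippocampus that sum too was highest in replicate 2 (6100). Both lists were set beside Spon1 after the values were seen, and their part in the Spon1 values was not tested.

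Spon2 (chr5:33198184-33218455, minus strand) encodes mindin, a secreted spondin of innate immunity. Its normalized counts were 236 in SCO replicate 1 and 0 in SCO replicates 2 to 4. Hippocampus replicates 1 to 5 held 1.25, 134, 0, 158 and 742. Within each tissue the gene was at or near 0 in some libraries and above 100 in others, and the tissues overlapped. For Spon2 limma gave a log2 fold change of -3.05 (SE 2.40; 95% confidence interval -8.35 to 2.26; adjusted p = 0.594).

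Of the thrombospondins, Thbs1 (chr2:118111876-118127133, plus strand) and Thbs2 (chr17:14665500-14694235, minus strand) encode the trimeric forms with type 1 repeats, which act on synapse formation and vessels. Thrombospondin 1 also acts on latent TGF-beta. The Thbs1 values of SCO replicates 1 to 4 were 361, 25.1, 449 and 479 normalized counts, and hippocampus replicates 1 to 5 held 486, 337, 203, 775 and 2.28. One library in each tissue, SCO replicate 2 and hippocampus replicate 5, lay far below the rest, and the remaining values overlapped. For Thbs1 limma gave a log2 fold change of 0.47 (SE 1.59; 95% confidence interval -3.04 to 3.98; adjusted p = 0.904). Its sign was not stable: the mean was 329 ± 208 in SCO (SD, n = 4) and 361 ± 292 in hippocampus (SD, n = 5), and without hippocampus replicate 5 the log2 fold change was -0.92. Endothelial markers summed to 19156 to 23440 in SCO and 9413 to 14837 in hippocampus, without overlap. All 11 were higher by mean in SCO, and limma called 0 of the 11, where it called 3.05% of all genes. The sum was highest in SCO replicate 2 and in hippocampus replicate 5, the libraries with the least Thbs1 of each tissue. The part of these markers in the Thbs1 values was not tested.

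Thbs2 had the largest ratio of means after Sspo, 31.9, and it rested on few libraries. The Thbs2 values of SCO replicates 1 to 4 were 518, 1.48, 3023 and 8.95 normalized counts. Hippocampus replicate 5 held 137, replicate 1 held 2.50, and hippocampus replicates 2, 3 and 4 held 0. SCO replicates 1 and 3 were above every hippocampus library, and SCO replicates 2 and 4 were within the hippocampus range. Limma put the log2 fold change at 4.52 (SE 2.31; 95% confidence interval -0.59 to 9.63; adjusted p = 0.388). Without SCO replicate 3 the SCO mean of Thbs2 went from 888 to 176, and without hippocampus replicate 5 the hippocampus mean went from 27.8 to 0.624.

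Thbs2 is known from fibroblasts and meninges, so the meningeal and fibroblast markers are given beside it. Of 12 listed, 11 were in the table, 8 had the higher mean in SCO and none was at 0 throughout a tissue. They summed to 15903, 8002, 3721 and 21768 normalized counts in SCO replicates 1 to 4, lowest in the library with the most Thbs2. In hippocampus they summed to 2285 to 13261, highest in replicate 5, the library with the most Thbs2 there. This library also held the most Spon2 and Thsd4 of the hippocampus libraries. The part of these markers in any of the 3 genes was not tested.

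Thbs3 (chr3:89215180-89226837, plus strand) and Thbs4 (chr13:92751590-92794818, minus strand) encode the pentameric thrombospondins. Thbs3 had the lowest spread between libraries of all 10 genes, with 1483, 1035, 701 and 1076 normalized counts in SCO replicates 1 to 4. Hippocampus replicates 1 to 5 held 682, 999, 2012, 1359 and 1117 of Thbs3, and the ranges overlapped. Limma put its log2 fold change at -0.16 (SE 0.39; adjusted p = 0.865), and the 95% confidence interval, -1.03 to 0.71, is the narrowest of the 10. Exons of Thbs3 share 318 bases with Mtx1, a highly read gene on the opposite strand. No source used here gives the strand setting of the counting, so reads from those bases cannot be assigned to either gene. Thbs1 exons likewise share 208 bases with the non-coding gene Gm29233, and exons of the other 8 members overlap no annotated gene.

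Thbs4 was read at 428 normalized counts in SCO replicate 4 and at 0 in SCO replicates 1, 2 and 3. Hippocampus replicates 1 to 5 held 6.24, 1.65, 0, 109 and 7.61 of Thbs4. A single library thus held all of the gene's SCO reads, and another held most of its hippocampus reads. Limma put the log2 fold change at -0.65 (SE 2.05; 95% confidence interval -5.18 to 3.89; adjusted p = 0.896), while by ratio of means SCO was 4.28 times as high. SCO replicate 4 also held the most choroid plexus markers, given above, and the most meningeal markers of the SCO libraries (21768). Of the choroid plexus markers, 9 of 9 were in the table and 8 had the higher mean in SCO, with hippocampus sums of 688 to 14961. In hippocampus replicate 4, which held the most Thbs4 there, choroid plexus markers summed to 961 and meningeal markers to 3891. Neither sum was the highest of the hippocampus libraries. Kl was at 0 in all SCO libraries and Kcnj13 in all hippocampus libraries. The part of either list in the Thbs4 value was not tested.

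Thsd7a (chr6:12311610-12749410, minus strand) and Thsd7b (chr1:129273302-130219278, plus strand) encode large transmembrane proteins with many type 1 repeats. The Thsd7a values of SCO replicates 1 to 4 were 1073, 1153, 98.6 and 255 normalized counts, and hippocampus replicates 1 to 5 held 1619, 264, 700, 616 and 166. High and low libraries occurred in both tissues, and limma put the log2 fold change at -0.24 (SE 0.89; 95% confidence interval -2.21 to 1.72; adjusted p = 0.911). Thsd7b had 849, 834, 294 and 1799 normalized counts in SCO replicates 1 to 4. Hippocampus replicates 1 to 5 held 2962, 738, 852, 1510 and 1062 of Thsd7b. SCO replicate 3 lay below the hippocampus range and the other SCO libraries within it. For Thsd7b limma gave a log2 fold change of -0.67 (SE 0.58; 95% confidence interval -1.95 to 0.61; adjusted p = 0.611).

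Thsd4 (chr9:59966931-60522046, minus strand), also known as ADAMTS-like 6, encodes a matrix protein that binds fibrillin microfibrils. The Thsd4 values of SCO replicates 1 to 4 were 31.3, 424, 3.65 and 634 normalized counts, and hippocampus replicates 1 to 5 held 4.99, 24.8, 0, 1.83 and 685. The highest single library was from hippocampus, and 3 of the 4 SCO libraries were above the other hippocampus libraries. Limma put the log2 fold change at 2.68 (SE 2.09; 95% confidence interval -1.95 to 7.31; adjusted p = 0.594).

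The spread between libraries of one tissue differed widely among the 10 genes. Spon2, Thbs2, Thbs4 and Thsd4 each had, within a tissue, a library at 3 reads or fewer and another at 100 normalized counts or more. This pattern held for 4 of the 10 members and for 26.0% of all 28150 genes tested. The residual SD of log2(value + 1) within tissues was 4.08 for Spon2, 3.91 for Thbs2, 3.52 for Thsd4 and 3.45 for Thbs4. Among protein-coding genes of like level (mean log2 within 0.5), 84.9%, 75.7%, 64.3% and 66.5% had a lower SD than these 4, in the same order. Spon1 was more uneven than most genes of its level, with an SD of 1.26 against a median of 0.61 over 2264 genes, higher than 96.6% of them. Thbs3 had 0.52 against a median of 0.76. Sspo had 0.75, but its mean over both tissues describes neither, so a median at that level is no like comparison.

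**Figure D2:**
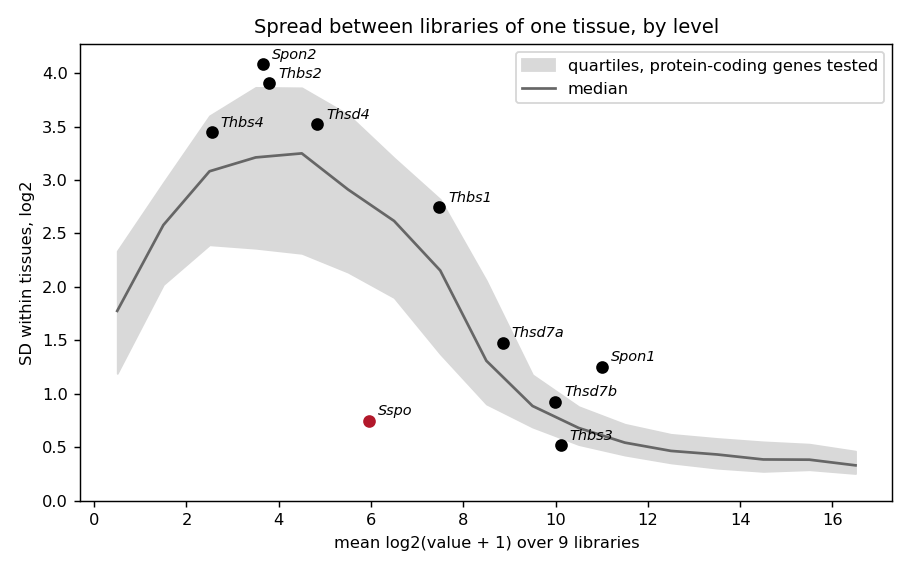
SD of log2(value + 1) between libraries of one tissue (vertical) against the mean log2(value + 1) over 9 libraries (horizontal) for the 10 genes, with Sspo in red. The grey band gives the quartiles and the line the median of protein-coding genes tested, by level. Spon1 lies above the band at 1.26, and Spon2, at 4.08, and Thbs2, at 3.91, are the most uneven members.

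Per length of exon, Spon1 had the highest mean level in SCO, and the place of Sspo rested on SCO replicate 2. The mean level in SCO was 562 ± 370 normalized counts per kb for Spon1 and 272 ± 229 for Sspo (SD, n = 4). Thbs3 followed with 223 ± 66.4, Thbs2 with 127 ± 206, Thsd7b with 77.6 ± 51.4 and Thbs1 with 54.1 ± 34.3. Thsd7a had 46.9 ± 39.7, Thbs4 32.5 ± 65.0 and Thsd4 19.5 ± 22.0, and Spon2 ranged from 0 to 80.0. Without SCO replicate 2 the level of Sspo was 158 ± 30.6 per kb (SD, n = 3), below Thbs3 at 225 and Thbs2 at 169. By library, Thbs3 led in SCO replicate 1 (307 per kb), and Spon1 led in SCO replicates 2, 3 and 4. In the order over all 4 SCO libraries no neighbours differed by more than the larger of their SDs. In hippocampus the level per kb was highest for Thbs3, 256 ± 103, then Spon1, 130 ± 78.8, and Thsd7b, 117 ± 74.7 (SD, n = 5). Sspo came last there, at 0.0986 ± 0.0614, below Thbs2 at 3.97 ± 8.69. With coding length in place of exon length Spon1 stayed first in SCO (2386 per kb), followed by Thbs3 (374) and Sspo (277), and in hippocampus Spon1 (551) came before Thbs3 (430). Coding bases make up 2445 of the 10382 exon bases of Spon1 and 2868 of the 4823 of Thbs3, but 15584 of the 15863 of Sspo.

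**Figure D3:**
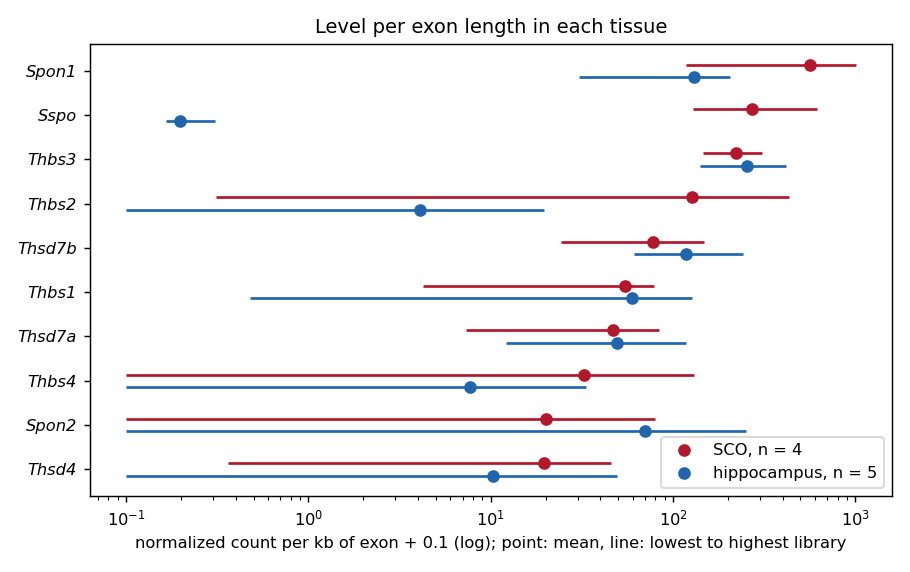
Level of each gene as normalized counts per kb of annotated exon, plus 0.1, on a log axis, with the mean as a point and the lowest to highest library as a line, SCO in red and hippocampus in blue. Sspo is the gene whose lines are apart (128 to 613 in SCO, 0.0650 to 0.208 in hippocampus).

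The genes whose values over the 9 libraries were most like those of Sspo were sought among 13465 genes with a mean of at least 100. The 5 with the highest Pearson correlation of log2(value + 1) were Ferd3l, Irx2, Ldlrad2, Spp2 and Fhad1os2, with r from 0.996 to 0.993. The libraries fall into 2 tissues and share them, so r mainly describes genes that were near 0 in hippocampus and high in SCO, and no test is given. Ferd3l, a basic helix-loop-helix factor of the floor plate, held 1556, 2072, 1121 and 413 normalized counts in SCO replicates 1 to 4 and 1 read in hippocampus in all (1.65 in replicate 2). Ldlrad2, a gene of the LDL receptor class A type, held 5881, 9819, 5636 and 5367 in SCO replicates 1 to 4. It was highest in replicate 2, as were Sspo, Ferd3l and the summed SCO markers.

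Of the enzymes that glycosylate type 1 repeats, with the suppliers of their sugar donors, 12 were tested. Dpy19l3 was the one called, 1 higher and 0 lower (8.33% against 3.05% of all genes), and the list's median log2 fold change was 0.03 against -0.04. Dpy19l3 encodes a C-mannosyltransferase of type 1 repeats. SCO replicates 1 to 4 held 7576, 17585, 6764 and 6096 normalized counts of Dpy19l3, and hippocampus replicates 1 to 5 held 816, 282, 1557, 2094 and 2463. Every SCO library was above every hippocampus library, and SCO replicate 2, the library with the most Sspo, also held the most Dpy19l3. The summed SCO markers were highest in that library too (27139), and whether these values are linked was not tested. Dpy19l3 averaged 9505 ± 5420 (SD, n = 4) and 1443 ± 897 (SD, n = 5), a log2 fold change of 2.93 (SE 0.62; 95% confidence interval 1.56 to 4.30; adjusted p = 0.0320 in limma). The call held in edgeR (adjusted p = 0.0315) and DESeq2 (adjusted p = 0.000134). It ended when hippocampus replicate 1 or 3 or any 1 of the SCO replicates was left out (limma adjusted p 0.0541 to 0.0913), with log2 fold changes of 2.58 to 3.09.

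Dpy19l1, a related C-mannosyltransferase, was also higher in every SCO library, and it is named after its values were seen, as are Pofut2, B3glct, Adamts9, Adamtsl2, Unc5c, Ism2, Aplp2, Calr, Sdc4, Fbn2, Fn1, Ltbp3, Rfx3, Rfx4 and Msx1 below. It held 2438, 2984, 2128 and 1749 normalized counts in SCO replicates 1 to 4 and 400 to 1352 in hippocampus. Limma put its log2 fold change at 1.57 (SE 0.45), which did not pass (adjusted p = 0.10). DESeq2 called 2 of the 12, Dpy19l1 and Dpy19l3, with 12.7% of all genes called. EdgeR called 1 of the 12, Dpy19l3, with 3.65% of all genes called. Values did not overlap for the same 2 genes, both higher in SCO, where 4.78% of all genes were higher without overlap. Pofut2, the O-fucosyltransferase gene, ran from 1380 to 6640 normalized counts in SCO and from 1340 to 3650 in hippocampus, and limma put its log2 fold change at 0.40 (SE 0.45; adjusted p = 0.669). B3glct, which adds the glucose to that fucose, ran from 748 to 2001 and from 531 to 1413 (0.57, SE 0.42; adjusted p = 0.571 in limma). The groups of Pofut2 and B3glct overlapped.

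**Figure D4:**
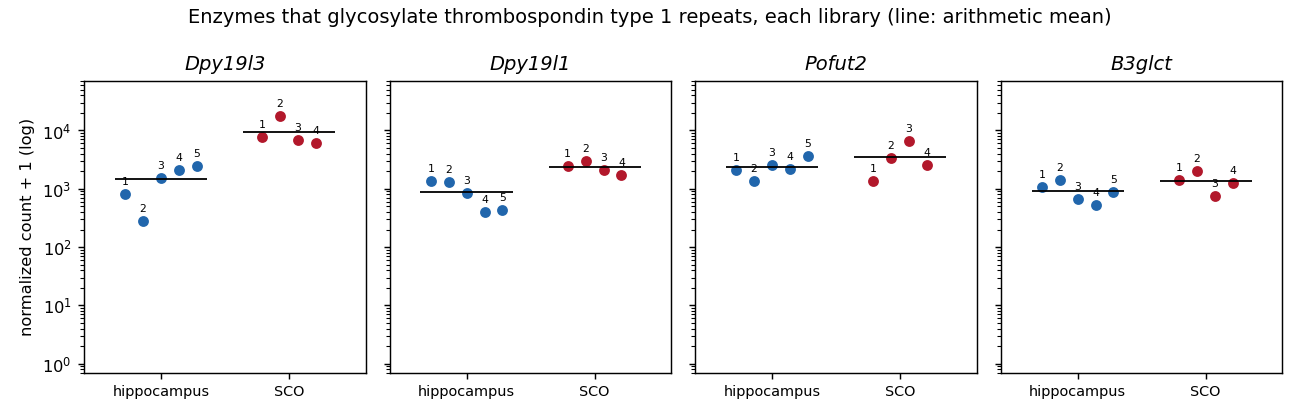
Normalized count + 1 (log axis) of Dpy19l3, Dpy19l1, Pofut2 and B3glct in each P0 library, with replicate numbers beside the points and a line at the arithmetic mean. The SCO libraries of Dpy19l3 (6096 to 17585) and Dpy19l1 (1749 to 2984) lie above all hippocampus libraries, while Pofut2 and B3glct overlap.

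Of 55 further genes with type 1 repeats, among them ADAMTS proteases, UNC5 netrin receptors, R-spondins and CCN proteins, 50 were in the table and 49 were tested. Limma called 0 of the 49, where it called 3.05% of all genes. At an unadjusted p under 0.05 it took 3 higher and 7 lower, 10 of 49, where it took 15.5% of all genes. EdgeR called 0 of 39 (3.65% of all genes), and DESeq2 called 6 of 43, 3 in each direction, with 12.7% of all genes called. The list's median log2 fold change was -0.46. Values did not overlap for 4 genes, 3 higher (Adamts9, Ism2 and Unc5c) and 1 lower (Adamtsl2), a share near the 8.53% of all genes. Unc5c, a netrin receptor gene, ran from 3346 to 5695 normalized counts in SCO and from 593 to 2645 in hippocampus (log2 fold change 1.56, SE 0.47; adjusted p = 0.115 in limma). Ism2, an isthmin gene, ran from 100.4 to 262 in SCO and from 1.90 to 47.9 in hippocampus (4.04, SE 1.03; adjusted p = 0.0660 in limma).

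Receptors and partners of thrombospondins and spondins were called in 0 of 22 cases by limma (3.05% of all genes). At an unadjusted p under 0.05 limma took 4 higher and 3 lower (15.5% of all genes). EdgeR called 0 of 19 (3.65% of all genes), and DESeq2 called 1 of 19, Sdc4 (12.7% of all genes). Values did not overlap for 3 of the 22, Aplp2, Calr and Sdc4, all higher in SCO, where 4.78% of all genes were higher without overlap. Sdc4, a syndecan, held 601 to 2156 normalized counts in SCO and 82.4 to 520.0 in hippocampus (log2 fold change 2.31, SE 0.64, adjusted p = 0.0875 in limma). The median log2 fold change of the 22 was 0.45.

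Among 10 tested genes of microfibrils and latent TGF-beta, Tgfb2 was called lower and none higher (10% against 3.05% of all genes), and the median log2 fold change was -1.66. SCO replicates 1 to 4 held 461, 251, 632 and 360 normalized counts of Tgfb2, a ligand of the TGF-beta family, and hippocampus held 1930 to 5461. The groups did not overlap, and limma put the log2 fold change at -2.95 (SE 0.40; 95% confidence interval -3.82 to -2.07; adjusted p = 0.00300). DESeq2 called 4 of 9, with 12.7% of all genes called: Fbn2, Fn1 and Tgfb2 lower and Ltbp3 higher. In this list 1 gene was higher and 3 were lower without overlap, where 4.78% and 3.75% of all genes were. Fbn2 and Fn1, a fibrillin and fibronectin, did not overlap either, at -4.57 (SE 1.26; adjusted p = 0.0877 in limma) and -1.65 (SE 0.48; adjusted p = 0.102) on the same scale. Ltbp3, a latent TGF-beta binding protein gene, did not overlap in the other direction, with 668 to 1816 normalized counts in SCO and 88.7 to 654 in hippocampus (1.99, SE 0.61; adjusted p = 0.119 in limma).

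Of 7 tested genes known for SCO formation or Reissner fibre sensing, Pax6 was called higher and none lower (14.3% against 3.05% of all genes). EdgeR called 1 of 5, Pax6 (3.65% of all genes), and DESeq2 called 3 of 6, all higher (12.7% of all genes). Pax6 is also among the SCO markers summed above. SCO replicates 1 to 4 held 8387, 6437, 6038 and 3939 normalized counts of Pax6, and hippocampus held 642 to 1873, without overlap. Limma put the log2 fold change of Pax6 at 2.75 (SE 0.37; adjusted p = 0.00320). At an unadjusted p under 0.05 limma took 5 of the 7, all higher, where it took 8.33% of all genes as higher. Rfx4, whose loss is known to disrupt the SCO, had 3382, 7173, 3896 and 1769 in SCO replicates 1 to 4 and 202 to 2321 in hippocampus, so SCO replicate 4 overlapped (2.01 on the log2 scale, SE 0.70; adjusted p = 0.181 in limma). Msx1, likewise needed for the SCO, had 6187, 7799, 310 and 2297 in SCO replicates 1 to 4 and 31.4 to 764 in hippocampus (4.01 on the log2 scale, SE 1.24; adjusted p = 0.125 in limma). Rfx3, a related factor also needed for the SCO, had the lower mean in SCO, with 1321 to 4800 against 2526 to 4402 (-0.38 on the log2 scale, SE 0.39; adjusted p = 0.657 in limma). SCO replicate 3 fell within the hippocampus range of Msx1, and Sspo was at 2504, 9720, 2999 and 2027 in SCO replicates 1 to 4. A relation of Msx1 to Sspo was not tested.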

How the data were processed

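Per the submitters' processing notes, FastQC, HISAT, HISAT2, featureCounts and DESeq2 were used with the build GRCm38. Tool versions, the annotation and the strand setting were not stated there. The authors deposited 1 normalized signal per gene and library, the reads scaled by a size factor. Their mean column equals the mean of the libraries within a relative 8e-15. Per the file headers, the deposited comparison gives a log2 fold change, standard error, test statistic (a score), p-value and adjusted p-value, under DESeq2's column names. Dividing each library by its smallest step gave whole reads for 100% of values (tolerance 1e-06), so reads could be recovered. The number of columns from other series was 0.

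Limma-trend on log2(value + 1) served as the main test. It was fitted to the 28150 genes whose mean reached 1 in SCO or hippocampus. Genes were called at an adjusted p (Benjamini-Hochberg, over all of them) under 0.05. EdgeR's quasi-likelihood test and DESeq2 on recovered reads were alternatives and called 709 and 2721 genes. Alternatives also covered pseudocounts of 0.5 and 5, filters, scaling, left-out libraries and a replicate block. The members and lists were chosen with earlier results of these data known. Named genes are the members, the called genes of each list, and the 5 genes most like Sspo. Genes outside this rule are said to be so in the text, apart from marker genes and genes that overlap a member. Positions and lengths come from GENCODE M21 (GRCm38; 31302 of 31883 identifiers matched). Promoters come from RefSeq GRCm38.p6, which had entries for 7 of the 10 members. The Poisson and binomial intervals of pooled Sspo reads cover counting error only, while limma's intervals rest on the spread between libraries. Software was R 4.3.3, limma 3.58.1, edgeR 4.0.16, DESeq2 1.42.0, Python 3.11.15 and matplotlib 3.10.9. The tests were also run on simulated counts with the same dispersion for every gene. That run does not show how the tests perform on these data, where spread differed widely between genes.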

Additional observations from a re-analysis of the deposited data

Results flagged for a closer look

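Libraries were compared within each tissue by Dixon's ratio, the gap of an extreme library to its neighbour divided by the whole range against its 95% critical value. Over the 10 genes and 2 tissues, 9 of 20 groups had such a library. The ratio marks about 5% of groups by chance for normally distributed values, but on this linear scale 23.4% of all genes tested that varied at all had one in SCO and 29% in hippocampus, against 4 and 5 of the 10 members. SCO replicate 2 held 9720 normalized counts of Sspo, with the next at 2999. Hippocampus replicate 2 held 3.30 of Sspo, which is 2 reads, with the next at 1.25. SCO replicate 1 held 236 of Spon2 where the other SCO libraries held 0, and hippocampus replicate 5 held 742 with the next at 158. SCO replicate 3 held 3023 of Thbs2 with the next at 518, a ratio barely over the critical value. Hippocampus replicate 5 held 137 of Thbs2 with the next at 2.50. SCO replicate 4 held 428 of Thbs4 where the other SCO libraries held 0, and hippocampus replicate 4 held 109 with the next at 7.61. Hippocampus replicate 5 held 685 of Thsd4 with the next at 24.8, so this library was the highest of its tissue for Spon2, Thbs2 and Thsd4. Among the marker sums, SCO replicate 4 held 185457 of choroid plexus markers, 171311 of it from Ttr alone. The ratio was not computed without Ttr. Hippocampus replicate 1 held 2160 of the SCO markers with the next at 1189.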

How the results depend on the processing

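Sspo stayed called in all 19 alternatives without a block, with log2 fold changes of 9.07 to 11.61. Leaving out single libraries gave 9.98 to 10.74 for Sspo and 1.63 to 2.70 for Spon1, which none of them called. DESeq2 called 2721 genes and 2 members, with Spon1 at 2.12. Single left-out libraries gave 498 to 1077 genes called: hippocampus replicates 1 and 3 (565 and 498 genes) and SCO replicate 3 (564) moved the count by over 1.5 times. In uncalled members the sign turned: for Thbs1 in edgeR (-0.16), DESeq2 (-0.13) and left-out libraries (-0.92 to 1.48), for Thbs4 with a pseudocount of 5 (0.12), in DESeq2 (2.09) and with left-out libraries (-2.83 to 0.34), and with left-out libraries for Thbs3 (-0.35 to 0.04, the latter 0.041 without hippocampus replicate 3) and Thsd7a (-0.73 to 0.45). The cause was not tested. Left-out libraries that turned a sign were hippocampus replicate 5 (Thbs1), hippocampus replicate 3 and SCO replicate 3 (Thbs3), hippocampus replicate 4 and SCO replicates 1 to 3 (Thbs4), and hippocampus replicate 1 and SCO replicate 3 (Thsd7a). Upper quartile scaling took the median log2 fold change of all genes from -0.04 to -0.14 (the median shift per gene was -0.11) and turned no member's sign.

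The labels do not say whether libraries of the 2 tissues share an animal. Same-numbered libraries correlated in their deviations at -0.03 to 0.02, and 0 of 4 SCO libraries correlated best with their own number. All pairs, same-numbered or not, lay between -0.03 and 0.06, so these correlations cannot tell whether libraries were paired. The 2 pairs that share a bracketed number correlated at -0.02 and 0.06, the latter the highest of all pairs, and the labels do not say what that number marks. The replicate block by title number called 1 gene and 0 members, with Sspo at 10.43 (limma adjusted p = 0.0729) and Thbs1 at -0.92. The replicate block by bracketed number called 0 genes and 0 members, with Sspo at 10.81 (adjusted p = 0.650) and Thbs1 at -2.24, and leaves 1 residual degree of freedom. Coding length from RefSeq proteins was not run; GENCODE coding length, added after the data were seen, was used. Spread between libraries limits what can be said of Spon2, Thbs2, Thbs4 and Thsd4, with residual SDs of 3.45 to 4.08. Their lowest values are near the floor, where 3 reads were worth 1.10 to 4.95 normalized counts per library.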
